A study of Caenorhabditis elegans with 2 samples.

Results

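Many genes of Caenorhabditis elegans are known only by a locus name, made of the sequenced clone that carries the gene and a running number after a dot, such as F19B2.6. Of the 1005 ATFS-1 peaks in the deposited list, 375 (37.3%, 95% exact interval 34.3 to 40.4) were assigned only to genes written in this way. They were taken by their spelling alone: every name in the row, after removal of comments in brackets, held a dot followed by a digit and no hyphen. A further 550 peaks held at least 1 hyphenated symbol and served for comparison, and 80 held neither kind of name, 74 of them a question mark. Of the 394 names at the 375 peaks, nduf2.2 and sec24.1 met the rule without being clone names, and 21 were clone names typed with a lower-case first letter, such as zk470.2.

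The mitochondrial unfolded protein response is run in worms by ATFS-1, which binds DNA through a bZIP domain. In healthy cells the protein is imported into mitochondria and degraded there. When import falters it enters the nucleus instead and acts on genes for chaperones, proteases, import and metabolism. A hyphenated symbol reflects that a gene has been studied or resembles a known one, and a locus name in the list says only that no such symbol was used there.

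Both libraries came from chromatin of whole wild-type worms grown from eggs on spg-7(RNAi) food, which silences a mitochondrial protease gene, and taken as L4 larvae at about 48 h. One library (n = 1) was precipitated with an antibody against ATFS-1 and the other (n = 1) went through without antibody. Worms without spg-7(RNAi) were not analysed here, so binding with and without mitochondrial stress cannot be told apart, and the whole-worm lysate gives no tissue. With 1 library a group no peak has a replicate check and no test between the libraries was made. The file header places the antibody and control libraries in different project folders, so antibody and project cannot be told apart. Once duplicates were removed, 10992796 tags were left with antibody and 10583049 without, and the locus-name peaks held 162889 of the antibody tags (1.48%, 95% exact interval 1.47 to 1.49).

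Fold enrichment, tag counts, scores and false discovery rates are the authors' peak caller's values, used here to describe and rank peaks within the list. Fold enrichment is the antibody signal over the expected control level, and the list gives no control tags for a peak. The score was read as the negative log10 of the caller's p times 10. The false discovery rate compares counts of peaks at that score or better. It is the count with the libraries swapped, as a percentage of the count with antibody over control. Intervals on tags are exact 95% Poisson intervals and cover counting error only. Coordinates are those of the list. No source used here names their genome build. Whether a peak lies in a promoter, exon or intron was not analysed here.

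As a class, locus-name peaks were enriched about as much as peaks at genes with symbols. Their median fold was 3.28 (95% order-statistic interval 3.19 to 3.44, n = 375 peaks), against 3.20 (3.08 to 3.32, n = 550) for symbol peaks and 3.26 over the whole list, and the intervals overlap. The median density of antibody tags was 204 per kb in both classes. The median locus-name peak spanned 1513 bp (1443 to 1653) and the median symbol peak 1626 bp (1546 to 1709). A length of 2000 bp or more was reached by 29.1% of locus-name peaks (24.5 to 33.9) and by 35.6% of symbol peaks (31.6 to 39.8). Peaks are not replicates, so these differences were described and not tested.

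**Figure D1:**
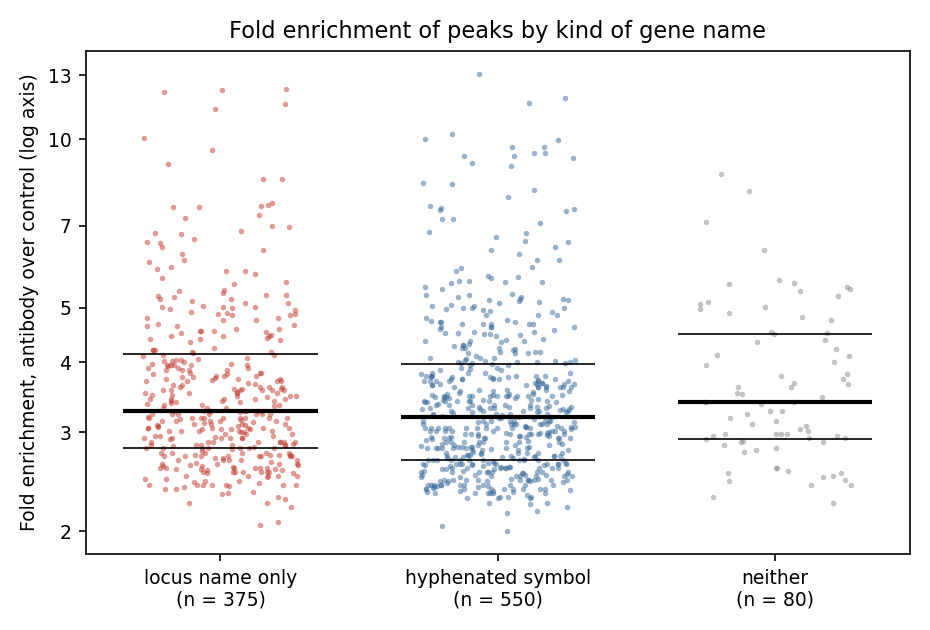
Fold enrichment (log axis) of every peak, by kind of gene name; each point is 1 peak, thick lines are medians and thin lines are quartiles. The medians of locus-name (3.28) and symbol peaks (3.20) lie close together, and both classes reach above 10-fold.

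Of the 375 locus-name peaks, 55 (14.7%, 95% exact interval 11 to 19) reached 5-fold, against 13.6% of the whole list and 12.4% of symbol peaks (9.73 to 15.4). At 10-fold and more stood 6 of them (1.6%, 0.589 to 3.45), against 1.09% of the list. These 6 were 54.5% of the 11 peaks of any class at that level (23.4 to 83.3), an interval that holds the class's 37.3% of all peaks. The shares at 5-fold and at 10-fold are near those of the whole list. Under 3-fold lay 129 locus-name peaks (34.4%) and 225 symbol peaks (40.9%).

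The strongest locus-name peak was at Y43F8B.2, at 12.28-fold with 1077 tags (1014 to 1143) and a false discovery rate of 4.76% (chromosome V, 19520680 to 19523488). B0205.13 followed at 12.21-fold with 1537 tags (1461 to 1616), but at a rate of 6.88% (I, 10726178 to 10730242). F19B2.6 had 12.12-fold and 1259 tags (1190 to 1331) at a rate of 3.23% (V, 20157666 to 20162023). These 3 were close in fold but not in tag density, which was 288.9 per kb at F19B2.6, 383.4 at Y43F8B.2 and 378.1 at B0205.13. H28G03.2 had the most tags of any locus-name peak, 3229 (3119 to 3342), over 7885 bp at 11.53-fold and a rate of 0 (X, 5210155 to 5218039), and also the highest density, 409.5 per kb. ZK673.2 had 11.31-fold with 1305 tags at a rate of 4.17% (II, 10444492 to 10448781). None of these 5 genes has a symbol in RefSeq, and in the RefSeq gene order none of their nearest protein-coding neighbours on either side was named at a peak.

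The sixth peak past 10-fold was C09F9.3, now glna-1, a glutaminase that turns glutamine into glutamate, at 10.03-fold with 668 tags (618 to 721). Its false discovery rate was above 10% in spite of its fold (II, 14728499 to 14730426). Next came zk470.2 at 9.56-fold, the longest locus-name peak, with 3080 tags (2972 to 3191) over 9477 bp at a rate of 0 (X, 4138528 to 4148004). C46C2.2 had 9.01-fold with 687 tags, at a rate of 6.17%. Between them, H28G03.2 and zk470.2 were the 2 locus-name peaks at a score of 3100, a value that 4 peaks of the whole list share.

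C34C12.8 and F56C11.3 stood together at 8.5-fold and are known as genes of mitochondrial protein handling. C34C12.8 encodes the mitochondrial GrpE co-chaperone, which exchanges the nucleotide of mitochondrial HSP70. Its peak held 748 tags (695 to 804) at a rate of 9.09% (III, 3459177 to 3461352). The neighbouring gene C34C12.1 had a 3.79-fold peak of its own, 2185 bp away. F56C11.3, relative of the ERV1/ALR sulfhydryl oxidase of the intermembrane space, shared its peak with F56C11.4, at 742 tags (690 to 797) and a rate of 10.53%, the highest of any locus-name peak (I, 181733 to 183758).

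The other peaks among the 15 of highest fold lay between 7.56 and 7.69. Y62E10A.13 had 7.69-fold with 567 tags. R05G6.7, now vdac-1, the anion channel of the mitochondrial outer membrane, had 7.62-fold with 1244 tags (1176 to 1315) at a rate of 4.35%, and with 398.7 tags per kb the second highest density of the class. K01G5.9 and K01G5.10 shared a 7.61-fold peak of 466 tags, where K01G5.9 is now tasp-1. F15D3.7, now timm-23, the import channel of the inner membrane, had 7.57-fold with 1174 tags (1108 to 1243) at a rate of 3.57%. E04A4.3, annotated as a pseudogene, had 7.56-fold with 365 tags.

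**Figure D2:**
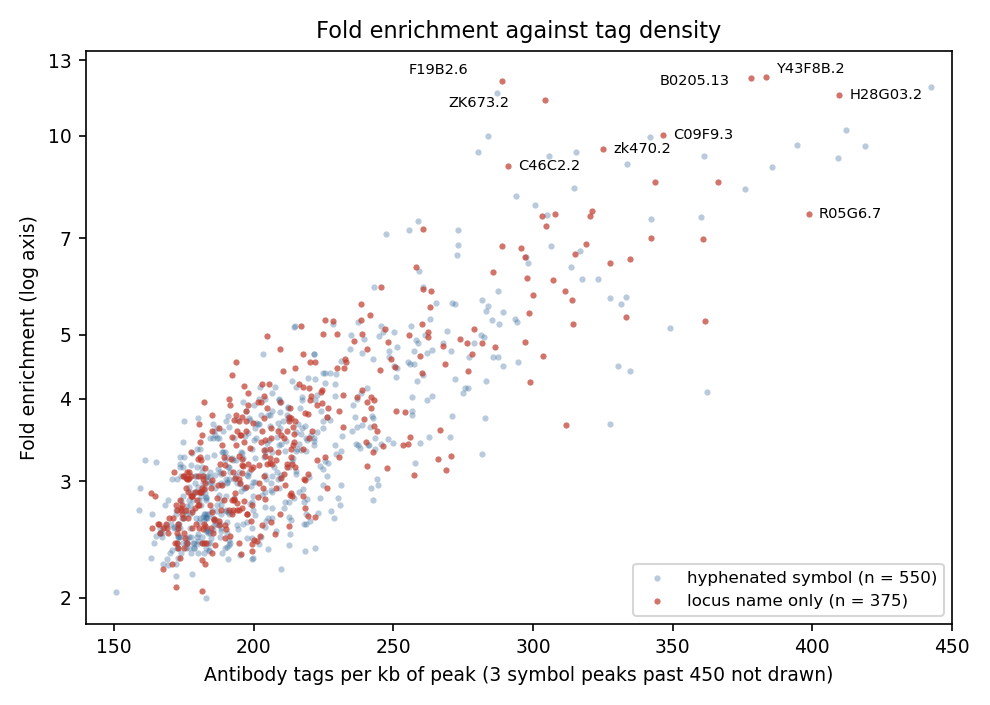
Fold enrichment (log axis) against antibody tags per kb (linear axis) for locus-name (red) and symbol peaks (blue), 1 point a peak; 3 symbol peaks past 450 tags per kb are not drawn. Locus-name peaks follow the same band as symbol peaks, with H28G03.2 at 409.5 tags per kb farthest right among them and F19B2.6 high at 288.9.

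Fold and tag density moved together among the 375 locus-name peaks (Spearman's rho 0.78, a description across peaks of 1 pair of libraries), and likewise among symbol peaks (0.77). Length was less closely tied to fold (0.26 and 0.24). Large tag totals did not always go with high fold. W06H8.6 held 2100 tags over 8202 bp at only 3.5-fold, F22D6.2, now mstr-1, 2077 tags over 6659 bp at 3.65-fold, and Y111B2A.12 held 1552 tags at 4.65-fold. T28B11.1, among the 5 longest at 6231 bp, had 3.62-fold. At the lower end, R09E12.3, now sti-1, a co-chaperone of HSP90, had the weakest peak at 2.05-fold with 263 tags. Y18H1A.4 followed at 2.08-fold, R148.3 at 2.21-fold, and Y65B4BL.1 and Y48G8AL.1 (now herc-1) at 2.25-fold.

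Only 11 locus-name peaks (2.93%, 95% exact interval 1.47 to 5.19) stood at a false discovery rate no higher than 5%, against 3.18% of the list and 3.27% of symbol peaks. They were H28G03.2, zk470.2 and R106.1 at a rate of 0, then T05D4.1 (now aldo-1) at 2.78%, T09F3.2 at 2.86%, F22D6.2 at 3.03%, F19B2.6, F15D3.7, ZK673.2, R05G6.7 and Y43F8B.2. R106.1 had 6.97-fold with 1288 tags (1219 to 1360), and T09F3.2 had 6.04-fold with 1117 tags (1052 to 1184). A low rate did not need a high fold, as F22D6.2 shows. Among the 94 locus-name peaks with scores of 331.83 and more the rate ran from 0 to 10.53% with a median of 5.79%. Among the 94 with the lowest scores, up to 77.95, the median rate was 7.58%.

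Many of the genes also have a symbol. Of the 394 names, 372 matched a gene of the RefSeq table (assembly WBcel235) on the peak's chromosome, 1 matched a gene on another chromosome and 21 were unmatched. They came to 367 distinct genes, 360 of them protein-coding, and 168 of the 367 carry a hyphenated symbol in that table, which does not say since when. The 166 peaks with such a gene had a median fold of 3.27 (3.15 to 3.53), and the 187 matched peaks without one also had 3.27 (3.13 to 3.5). Of the former, 21 (12.7%) reached 5-fold and 1 (0.602%) reached 10-fold, and of the latter 29 (15.5%) and 5 (2.67%). Over the whole list these shares were 13.6% and 1.09%, and at either level the exact intervals of the groups overlap.

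Some of the RefSeq symbols belong to genes of known role. The groups below were put together after the values were seen, they are examples rather than complete lists, and nothing was tested with them. There were 5 examples from mitochondrial import and membrane channels, and import genes that the list writes with symbols are not among them. Besides vdac-1 and timm-23 they were E04A4.5 (timm-17B.1, part of the inner-membrane import channel, 5.00-fold, 546 tags, 1081 bp from the 9.66-fold peak of the cytochrome c gene cyc-2.1), C41G7.9 (tspo-1, an outer-membrane translocator protein, 3.42-fold, 408 tags) and F23H12.2 (tomm-20, the outer-membrane import receptor, 2.55-fold, 206 tags). The 5 values lay on both sides of the list median of 3.26, from 2.55-fold to 7.62-fold.

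Of 37 genes of complexes I, III, IV and V listed by locus name, 6 were at a peak of any class, and 3 (8.11%) at locus-name peaks. Of the 19983 protein-coding genes in RefSeq, 1.8% were at locus-name peaks. These shares are not like for like, because the 19983 also hold genes that the peak list writes with symbols. No share of all genes at a peak of any class was counted. The 3 were F58F12.1, the delta subunit of ATP synthase (2.42-fold, 208 tags), Y51H1A.3 (ndub-8, complex I, 2.88-fold, 444 tags, a peak shared with Y51H1A.2) and Y71H2AM.5 (cox-6B, complex IV, 2.72-fold, 476 tags). The last shared its peak with Y71H2AM.4 (nduc-2, complex I) and Y71H2AM.20. Outside that list, C50B8.3 (nuaf-1, complex I assembly) shared a 5.91-fold peak of 682 tags with C50B8.1, T20D3.3 (coa-4, complex IV assembly) had 4.8-fold with 389 tags and C01F1.2 (sco-1, copper delivery to complex IV) had 3.87-fold with 270 tags. Of other subunits, the peak named nduf2.2 had 3.68-fold, Y54F10AM.5 (ndua-8) 3.49-fold and H28O16.1 (atp-1, the alpha subunit of ATP synthase) 3.04-fold. From mitochondrial translation there were F29C12.4 (gfm-1, an elongation factor) at 3.23-fold, Y48E1B.5 (mrpl-37, at a peak shared with Y48E1B.7) at 2.81-fold and Y48C3A.10 (mrpl-20) at 2.65-fold.

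Examples from sugar metabolism ranged from 2.33-fold to 6.76-fold over 7 peaks of 6 genes. F57B10.3 (ipgm-1, phosphoglycerate mutase) had peaks of 6.76-fold with 638 tags and 3.15-fold with 244 tags, 3528 bp apart. The aldolase gene T05D4.1 (aldo-1) had 5.19-fold with 1327 tags and its relative F01F1.12 (aldo-2) 3.64-fold with 736 tags. F25H5.3 (pyk-1, pyruvate kinase) had 3.74-fold, W05G11.6 (pck-1, which starts gluconeogenesis) 2.82-fold and F14B4.2 (hxk-1, hexokinase) 2.33-fold. Examples from the tricarboxylic acid cycle, fatty acid oxidation and lipoate synthesis were at 5 peaks of 2.41-fold to 3.96-fold, led by C05G5.4 (sucl-1, a subunit of succinyl-CoA ligase).

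Cytosolic acetyl-CoA synthesis and the mevalonate pathway were represented at 3 steps. F25B4.6 (hmgs-1, which makes HMG-CoA, the start of the mevalonate pathway) had 7.23-fold with 526 tags at a peak shared with F25B4.4 (V, 5683832 to 5685848). D1005.1 (acly-1, ATP citrate lyase, which makes acetyl-CoA from citrate) had 5.56-fold with 711 tags (X, 1477766 to 1480745). R06C1.2 (fdps-1, farnesyl diphosphate synthase, later in the same pathway) had 4.59-fold with 422 tags (I, 11923296 to 11924989). Amino acid enzymes held glna-1 and also F42D1.2 (tatn-1, tyrosine aminotransferase, 6.10-fold, 562 tags), zk829.4 (gdh-1, glutamate dehydrogenase, 2.61-fold) and K02F2.2 (ahcy-1, 2.48-fold). F54D5.12 (dhgd-1, 4.15-fold) was grouped with them, but it is not taken here as an amino acid enzyme.

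Autophagy was met at Y69A2AR.7 (epg-9, needed to start autophagosomes, 4.85-fold, 916 tags), R102.5 (allo-1, an adaptor for removal of paternal mitochondria, 4.24-fold, 767 tags) and T12G3.1 (sqst-1, the p62 receptor for ubiquitinated cargo, 4.03-fold, 1242 tags). bZIP factors other than ATFS-1 were at D1005.3 (cebp-1, 4.47-fold, 653 tags), Y75B8A.29 (zip-12, 3.44-fold), W08E12.1 (zip-11, 3.40-fold) and C27D6.4 (crh-2, 2.82-fold). Examples from entry into and folding in the endoplasmic reticulum were F59F4.2 (serp-1.1) at 4.54-fold, H17B01.4 (emc-1) at 3.17-fold, T09A5.11 (ostb-1) at 2.93-fold, Y57G11C.15 (sec-61.A, the translocon channel) at 2.85-fold and Y54G2A.23 (manf-1) at 2.58-fold. F44E5.4, an HSP70 gene with a near-identical neighbour copy that may share its reads, had 6.55-fold with 421 tags.

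**Figure D3:**
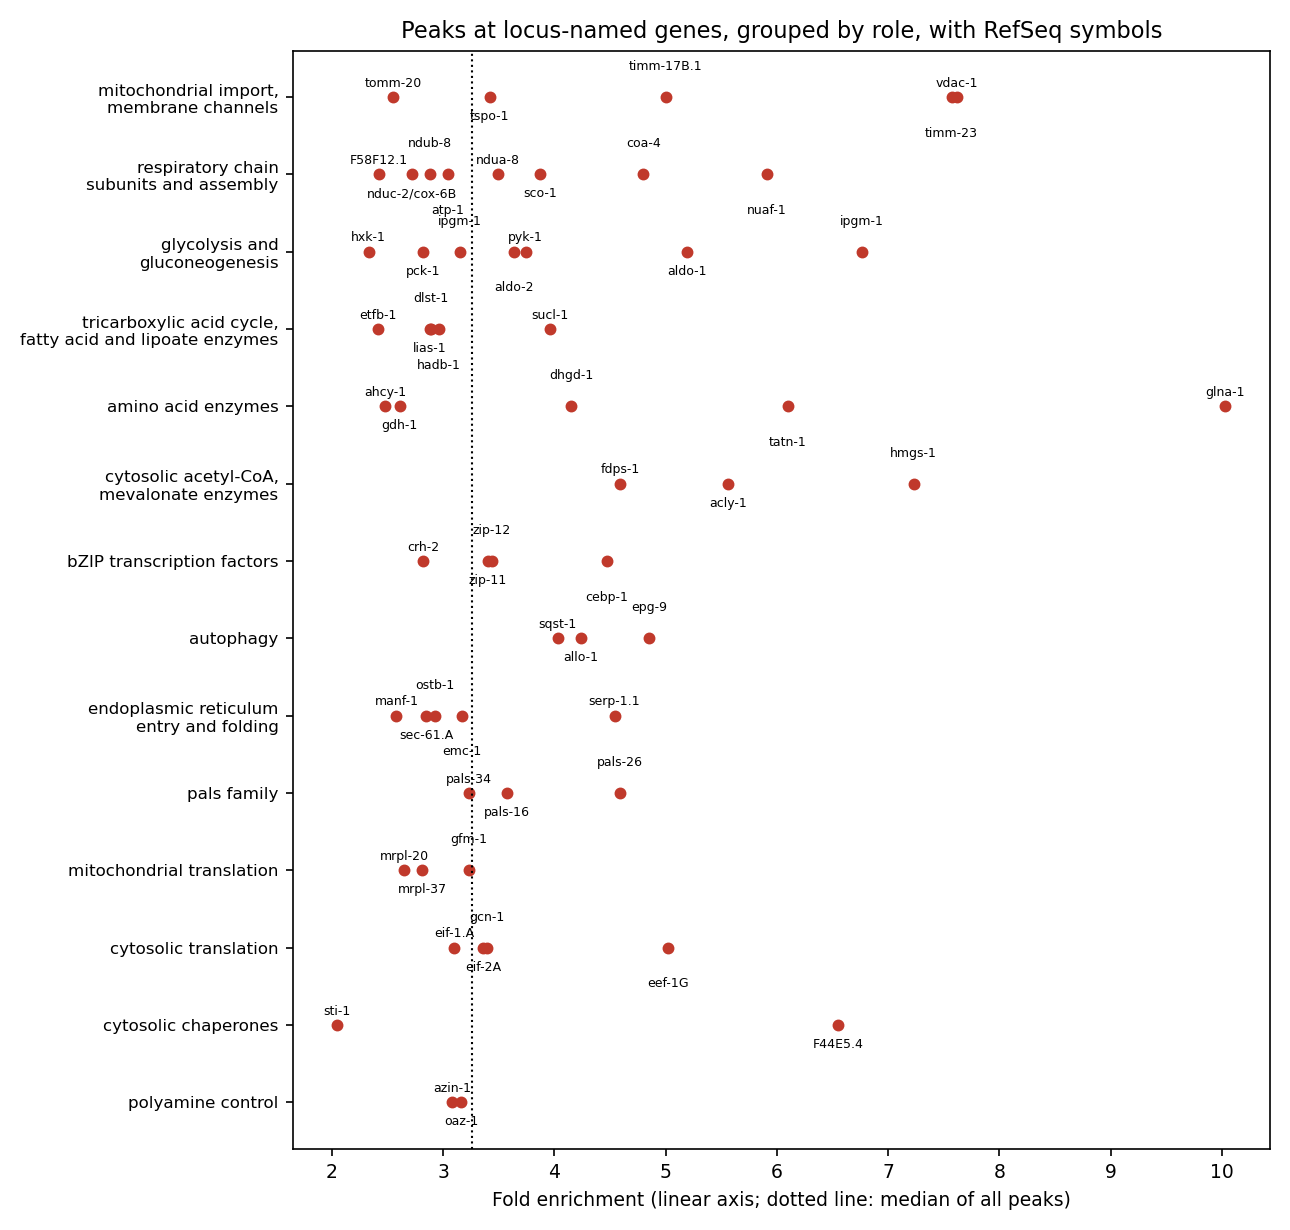
Fold enrichment (linear axis) of peaks at locus-named genes, in rows by role and marked with their RefSeq symbols; each point is 1 peak and the dotted line is the median of all peaks, 3.26. The members of each row were picked after the values were seen. They run from sti-1 (2.05-fold) to glna-1 (10.03-fold), on both sides of the line. The gene dhgd-1 was grouped with the amino acid enzymes but is not taken as one.

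Locus-name peaks were spread over the 6 nuclear chromosomes much as symbol peaks were. Chromosome III carried 75 of them (20%, 95% exact interval 16.1 to 24.4) and 19.8% of symbol peaks (16.6 to 23.4). Chromosomes I and IV carried 64 each, V 63, X 55 and II 54, and on every chromosome the intervals of the 2 classes overlap. They made up 40.1% of the peaks on III and 31.6% on X, where 34 of 174 peaks had neither kind of name. Their median fold ran from 3.14 on III to 3.58 on X, and that of symbol peaks from 2.96 on I to 3.47 on X. The share at 5-fold or more, 13.6% over the list, ran from 10.7% on III to 17.2% on IV for locus-name peaks and from 6.54% on I to 18.8% on X for symbol peaks. It was higher for locus-name peaks on I, III, IV and V and lower on II and X.

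**Figure D4:**
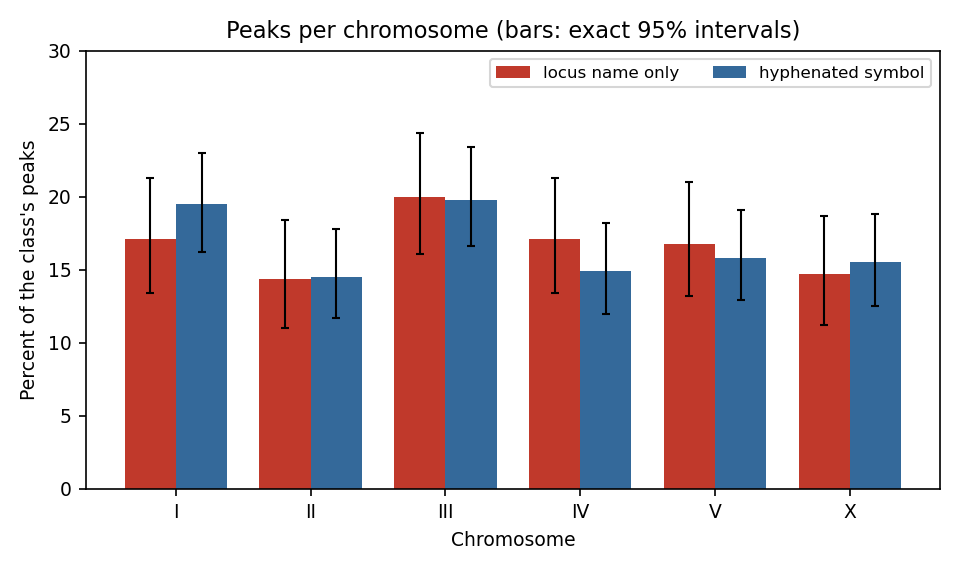
Share of the locus-name (red, n = 375) and symbol peaks (blue, n = 550) on each chromosome, in percent; error bars are exact 95% binomial intervals. The intervals of the classes overlap on all 6 chromosomes, with the largest locus-name share, 20%, on III.

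Another peak lay within 1000 bp of 24 locus-name peaks (6.4%, 95% exact interval 4.14 to 9.37) and of 30 symbol peaks (5.45%, 3.71 to 7.70). In 10 of the 24 the near peak held a symbol. C37H5.6 (adss-1, adenylosuccinate synthase) had a 4.12-fold peak of 638 tags that ended 998 bp before the peak of hsp-6, the mitochondrial HSP70 gene and reporter of the response (11.85-fold, 2186 tags). In the same region, C37H5.3 (abhd-5.2) had 3.57-fold with 768 tags and C37H5.13 had 6.80-fold with 379 tags. F13D12.3 (2.72-fold) lay 971 bp from the 7.09-fold peak of ldh-1, lactate dehydrogenase. T06A10.4 (lsy-13, 6.63-fold) and T06A10.3 (gtsf-1, 4.55-fold) lay 139 bp apart. Each such neighbour may share tags with the other, which was not tested.

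The densest group of locus-name peaks was on chromosome V, where 6 began within 50 kb (10932278 to 10966502). They were F58B4.5 (2.76-fold), F17C11.11 (2.40-fold), F17C11.1 (5.82-fold, 752 tags), F17C11.4 (2.44-fold), F17C11.13 (3.61-fold) and F17C11.9 (eef-1G, a translation elongation factor, 5.02-fold, 394 tags). No symbol peak lay between them. On chromosome III, 4 peaks of clone Y82E9BR spanned 28.7 kb at 2.76-fold to 3.78-fold, among them Y82E9BR.4 (pals-16, of a gene family tied to the response to intracellular pathogens). Of 324 clones named, a count that also holds nduf2.2 and sec24.1, 9 had 3 or more peaks. All 16 peaks with several names that could be checked named genes adjacent in the RefSeq order. Of the 348 locus-name peaks for which it was counted, 51 (14.7%, 11 to 19) had a gene next to one named at another peak. Neither this share nor the count by clone was made for symbol peaks, so neither says whether locus-name peaks lie closer together.

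**Figure D5:**
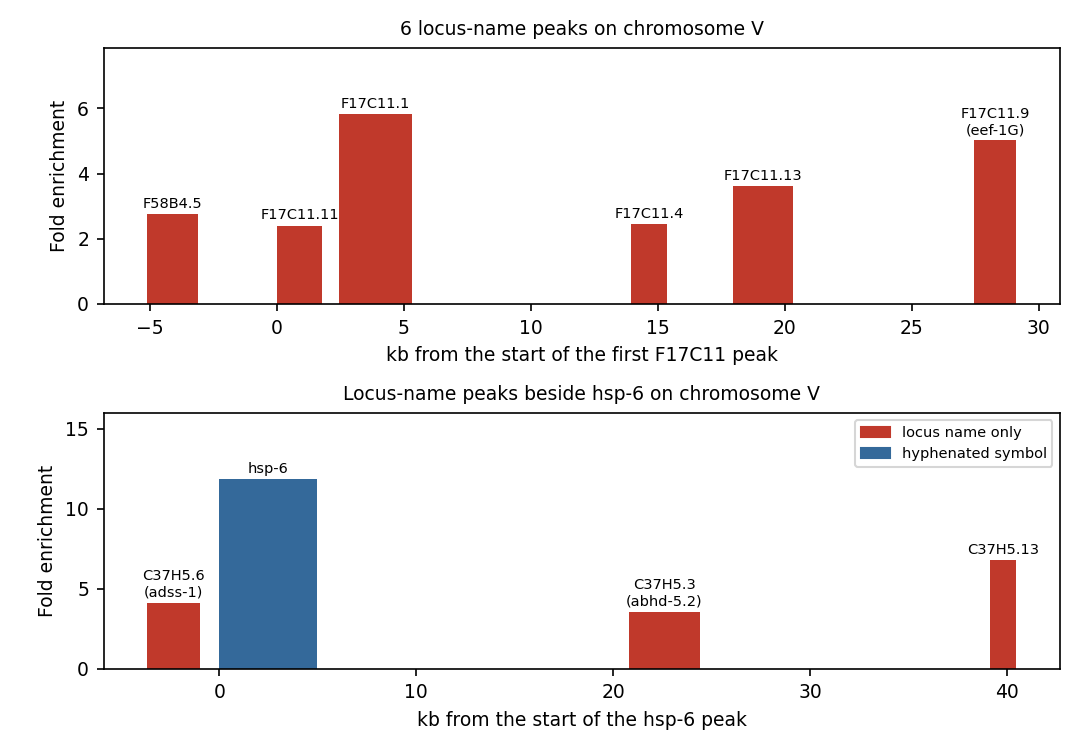
Peaks along a stretch of chromosome V with 6 locus-name peaks (upper panel) and beside hsp-6 (lower panel); bar width is the peak's extent in kb from the start of the first F17C11 peak or of the hsp-6 peak and bar height its fold enrichment. F17C11.1 (5.82-fold) and F17C11.9 (5.02-fold) are the tallest above, and hsp-6 (11.85-fold) stands over 3 locus-name peaks below.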

How the data were processed

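The authors deposited 1 peak table made from 1 antibody and 1 no-antibody library. Per the file headers, MACS 1.4.2 called peaks with a p cutoff of 1e-05, an effective genome size of 90000000 bp, 1 tag per position and local windows of 1000 and 10000 bp, scaling the larger library towards the smaller. BWA 0.7.5, Picard and MACS 1.4 are in the submitters' processing notes. The deposited values are a tag count per peak, a fold ratio, a score with a damaged heading and a false discovery rate in percent.

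Python 3.11.15, pandas 2.3.3 and scipy 1.17.1 were used. Names were classed by spelling and matched to RefSeq locus tags and symbols without regard to letter case. Medians carry order-statistic intervals and shares Clopper-Pearson intervals at 95%. Both kinds treat peaks as independent and do not cover spread between libraries, and an overlap of intervals is not a test. The name parser was first checked on made-up names with known answers, and the median's interval on values drawn at random from the folds of the list. Named peaks are the 15 of highest fold, the 5 with most tags, the longest, densest and weakest 5, those at a rate of 5% or less, the respiratory list and the 3 highest with several names. Others were chosen after their values were seen. The members and lists were chosen with earlier results of these data known. Sequence was not used here, so planned motif counts were not made, and planned keywords were not used because the gene table gives no descriptions.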

Additional observations from a re-analysis of the deposited data

How the results depend on the processing

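No paired analysis was possible because the antibody and the control stand on 1 library each, and neither could be left out. Over 8 other settings, 14 results gave 87 values inside and 24 outside the 95% interval of the value reported. For the difference of medians, the range between opposite limits of the medians stood in for that interval, and it is not a 95% interval. Peaks chosen by strength were stronger by construction. Keeping the peaks whose score reached the list median, locus-name peaks had a median fold of 3.97 (symbol peaks 3.88), 28.4% at 5-fold or more, a median length of 2037 bp and 233 tags per kb. Keeping those whose fold reached it, the same values were 4.09 (4.00), 28.4%, 1692 bp and 230 per kb. At rates up to 5%, 32 peaks in all, 11 locus-name and 18 symbol peaks were left. Their median folds were 7.62 (5.19 to 12.12) and 8.66 (5.68 to 9.96), a difference of -1.04 against 0.08 in the full list. The difference was not tested, since peaks are not replicates. There 90.9% reached 5-fold, the median length was 4223 bp and density 320 per kb, chromosome III held 9.09%, IV 9.09% and X 27.3%, and 0% had a peak within 1000 bp. With RefSeq symbols in place of locus names the class shrank to 20.8% of peaks, with 12.9% on I and 12.9% on IV. With only rows whose every name matched on the peak's chromosome, 353 locus-name and 475 symbol peaks were left, and the class's share was 42.6%. Peaks with neither kind of name dropped out of that count, so it is not like for like with the 37.3% of the full list. Single-name rows, separate peaks, and leaving out nduf2.2 and sec24.1 (a setting added after seeing the data) moved none of the values outside their intervals.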

Other observations

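Not all genes at locus-name peaks were protein-coding. RefSeq annotates 5 of the 367 matched genes as pseudogenes, and 3 of their peaks were above 5-fold, against 13.6% of all peaks at 5-fold or more. E04A4.3 had 7.56-fold, F20B6.7 had 7.31-fold with 524 tags and T09B4.7 had 5.32-fold with 651 tags, while K12D9.12 (irld-46) had 3.53-fold and Y105C5A.14 had 2.58-fold. These 5 were picked out after their values were seen. In gene order F20B6.7 lies next to hpk-1, which had a 3.15-fold peak, and no neighbour of the other 4 was named at a peak. Gene order leaves out unnamed peaks, and E04A4.3 lay 1266 bp from an unnamed peak of 5.54-fold. The peak of H36L18.2, the long noncoding RNA lep-5, had 3.04-fold, and W05H9.3, a noncoding RNA, had 4.21-fold and lay 289 bp from an unnamed peak of 8.08-fold.

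A pair of genes that act against each other on ornithine decarboxylase, the first enzyme of polyamine synthesis, were at peaks of nearly equal fold. They were zk484.1 (oaz-1, its antizyme, 3.16-fold) and F53F10.2 (azin-1, which binds the antizyme, 3.08-fold). Both folds lay between the quartiles of the whole list, 2.75 and 4.04, and the pair was picked after its values were seen. The antizyme peak lay 37 bp from a 3.1-fold peak at zk484.6, the smallest gap beside any locus-name peak.

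Each of 5 names stood at 2 peaks. Besides F57B10.3 they were F22B7.9 (3.15-fold and 2.85-fold), Y37E3.11 (pcyt-2.1, 3.76-fold and 2.51-fold), Y48G8AL.1 (herc-1, 2.73-fold and 2.25-fold, 48 bp apart) and R06B9.5 (4.05-fold at a peak shared with Y54G9A.9, and 2.68-fold).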
